A study of Oryza sativa with 8 samples.

Results

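Ethylene was set against air in roots of wild-type (WT) rice seedlings, the pairing of 2 of the 8 Affymetrix rice arrays of the study, and described across the 57258 probe sets analysed. The 2 arrays were chosen by their labels alone, as WT, root, and ethylene or air. The WT roots in ethylene came from 3-day-old seedlings given 10 ppm ethylene for 8 h at 28 °C in the dark. The WT roots in air came from 3-day-old seedlings kept at 28 °C without added ethylene. The other 6 arrays hold roots of the mhz7 mutant in ethylene and in air, WT shoots in ethylene and in air, and mhz7 shoots in ethylene and in air. The gene table lists MHZ7 as a synonym of EIN2, and which allele the mutant carries is not given in these sources. Seeds of both genotypes had germinated at 37 °C in the dark. Each condition has 1 array, so no difference below has a replicate check or a test, and a single array per condition sets the precision.

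Ethylene is a gaseous plant hormone made from S-adenosylmethionine by ACC synthase and ACC oxidase. It binds receptors of the endoplasmic reticulum membrane (the ETR and ERS proteins), which repress signalling until they bind it. EIN2 then passes the signal to transcription factors of the EIN3 and EIL type in the nucleus, and ethylene is known to shorten rice roots while it lengthens the coleoptile of dark-grown seedlings.

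A probe set is said to have risen or fallen where its scaled signal differed at least 2-fold between the arrays and the brighter one read at least 200, with signals under a floor of 100 set to 100. Log2 differences are ethylene minus air. Of 21201 probe sets that read at least 200 on one of the arrays, 234 rose (1.1%) and 225 fell (1.06%). A further 93.9% stayed within 1.5-fold, and log2 signals of the arrays correlated across these probe sets at r = 0.980. The calls were spread over the signal range up to 10000. Above it the arrays were closer, with 1 rise and 5 falls among 826 probe sets.

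**Figure D1:**
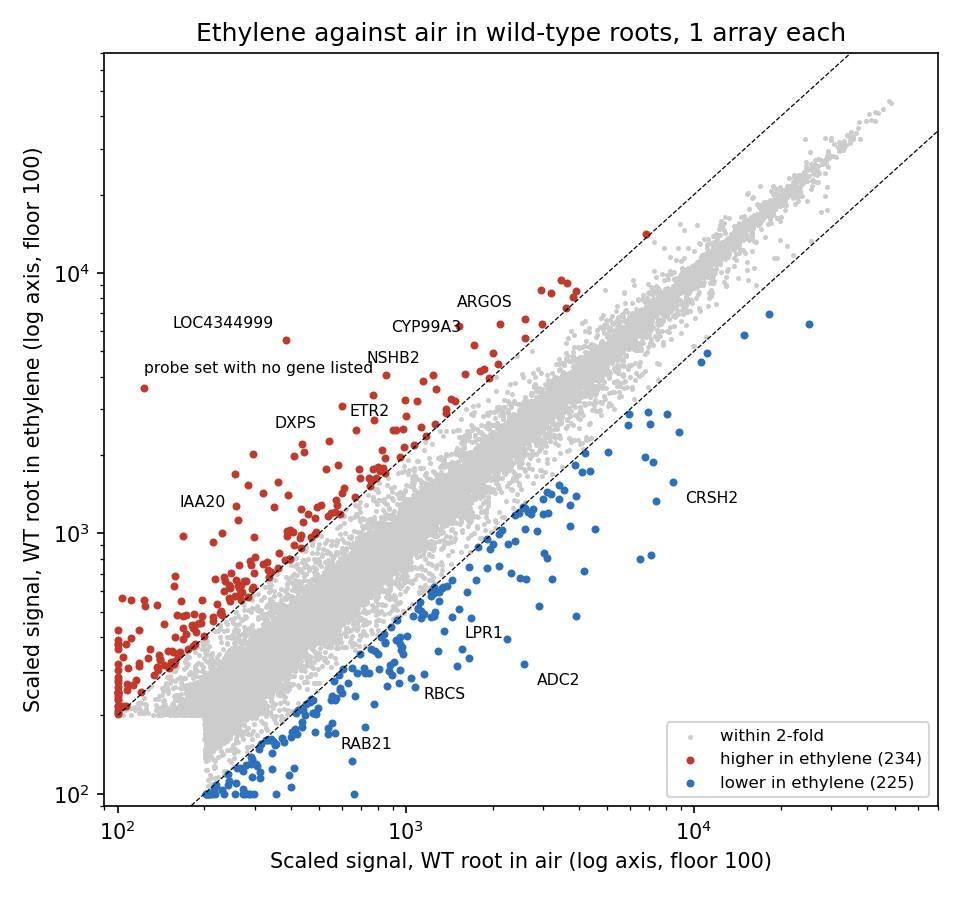
Scaled signal in WT roots in ethylene (vertical, log axis) against WT roots in air (horizontal, log axis) for 21201 probe sets, 1 array each. Red points are the 234 probe sets at least 2-fold higher in ethylene, blue points the 225 at least 2-fold lower, grey points the rest, and dashed lines mark 2-fold. LOC4344999 and a probe set with no gene listed lie farthest above the diagonal, and ADC2 and CRSH2 are among the points farthest below it.

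Of 8 measured root markers, most read higher in roots than in shoots. The nicotianamine synthase gene NAS1, a gene of iron uptake strategy in grasses, read 32799 in ethylene and 35687 in air in WT roots, against 1020 in WT shoots in ethylene. The small subunit gene of Rubisco, RBCS, read 279 in ethylene and 1042 in air in WT roots, against 29483 in WT shoots in ethylene. The iron transporter gene IRT1 read 549.6 in ethylene and 509.9 in air in WT roots, and the phosphate transporter gene PHT1-1, at 1679 in ethylene in WT roots, did not exceed its 1819 in WT shoots. The shoot marker CAB2R read 343 in ethylene and 801 in air in WT roots. The shoot markers LHCP, at 105 in ethylene and 171 in air, and RCABP69, under the floor in both, were dimmer there. Over 639 probe sets at least 10-fold brighter in mhz7 shoots than in mhz7 roots, the median signal was 130.2 in ethylene and 178 in air in WT roots, or 4.12% and 5.21% of the WT shoot signal in the same gas. These probe sets made up 56 of the 225 falls (24.9%) and 14 of the 234 rises (5.98%), beside 294 (1.39%) of the 21201 probe sets. Root-abundant transcripts were also dimmer in ethylene, with a median of 2758 in ethylene and 3356 in air over 180 probe sets. They made up 24 of the 225 falls (10.7%) and 3 of the 234 rises (1.28%), beside 178 (0.840%) of the 21201 probe sets. The part of either set in the falls was not tested.

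Counted as genes, each by its brightest probe set, 120 of 13839 measured genes rose (0.867%) and 123 fell (0.889%). A measured gene is one whose probe set averaged at least 200 over the 8 arrays. A symbol is listed for 20 of the rising genes (16.7%) and 22 of the falling genes (17.9%), close to the 14.7% of all measured genes, and the rest are given by locus number. Where a gene has several bright probe sets, these did not always pass 2-fold together. Among 47 genes with several such probe sets of which at least 1 was called, 17 had every probe set called the same way, 40 had the same sign throughout and 0 were called in opposite directions.

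Of 7 measured genes of ethylene receptors and signalling, 1 rose and 0 fell, beside 0.867% and 0.889% of all measured genes. The receptor gene ETR2 read 2520.0 in ethylene and 976 in air, a rise of 1.37, and a second, dimmer probe set of ETR2 read 268 in ethylene and lay under the floor in air. The other receptor genes were near their level in air. ERS1 read 6628 in ethylene and 5741 in air (0.21), ERS2 703 and 610.2 (0.20), and ETR3 1388 and 1271 (0.13). Downstream of the receptors, EIN2 read 1065 in ethylene and 1650 in air (-0.63). The transcription factor genes EIL1A and EIL1B differed from one another, at 8026 in ethylene and 7892 in air (0.02) for EIL1A and at 1927 and 3256 (-0.76) for EIL1B. In mhz7 roots the differences were 0.31 for ETR2, -0.18 for EIN2 and -0.11 for EIL1B.

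None of the 6 measured genes of ethylene synthesis and methionine salvage passed 2-fold, and their median was -0.15 beside 0.03 over all measured genes. LOC4348646, which rose (1.36), is not counted among the 6. It has synonyms of both a methionine salvage enzyme and a heat shock factor and is given below with heat shock genes. The ACC oxidase gene ACO1 read 536 in ethylene and 824 in air (-0.62). It is one of the shoot-abundant genes, at 13827 in WT shoots in ethylene. The ACC synthase gene ACS2 read 288 and 270.4 (0.09). SAM1 and SAM2, for S-adenosylmethionine synthetase, read 29312 and 9150.2 in ethylene against 31787 and 10442 in air (-0.12 and -0.19). METK3, of the same family, stood at -0.46 and the salvage kinase gene MTK1 at -0.10.

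The largest rise of a probe set had no gene listed. Os.19861.1.S1_at read 3621 in ethylene and 123 in air in WT roots, 29.4-fold higher, and was under the floor on each of the other 6 arrays. Os.11554.1.S1_at, also without a gene, read 973 in ethylene and 169 in air and was below 200 on the 6 others. Among named loci, LOC4344999 led with 5518 in ethylene and 384 in air, 14.4-fold higher. It read 149.5 and 128 in mhz7 roots in ethylene and air, and 7509 and 2350.0 in WT shoots. LOC4326518 read 2015 and 296, LOC4342313 1690 and 255, LOC107277424 1534 and 284, and LOC4342528 3082 and 602, all rises over 5-fold. Next were LOC4325834 (2.33), LOC4327925 (2.31), LOC4325984 (2.28), LOC4324556 (2.21) and LOC4341335 (2.16). LOC4341335 and LOC4335460 are shoot-abundant and went against the trend of that set. LOC4341335 read 1431 in ethylene and 319.8 in air in WT roots and was under the floor in mhz7 roots. LOC4335460 read 231 in ethylene and was under the floor in air in WT roots. Where the air array was under the floor, the rise was at least 4.27-fold for LOC4350133, 3.75-fold for LOC4347916, 2.46-fold for LOC4336765, 2.31-fold for LOC4335460 and 2.17-fold for LOC4351195.

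Auxin is the hormone through which ethylene acts on root elongation in Arabidopsis. Of 46 measured auxin response genes 2 rose and 0 fell, with a median of 0.08. Both encode Aux/IAA proteins, the repressors of auxin response. IAA20 read 1128 in ethylene and 262 in air, the largest rise of a gene with a symbol (2.11), and IAA26 read 679 and 335 (1.02). IAA9 (0.90) and IAA2 (0.87) came close to 2-fold, at 629 and 765 in ethylene against 336 and 420.1 in air. None of the measured ARF or GH3 genes rose or fell. Auxin transport and conjugate genes, 10 in number, had no call either.

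Regulators of growth followed. BU1, a helix-loop-helix protein gene induced by brassinosteroid, read 602 in ethylene and 234 in air, and ARGOS, a gene of organ size, read 6634 and 2592, a rise of 1.36 in each case. ILI6, another helix-loop-helix gene, went the other way, at 545 in ethylene and 1124 in air (-1.04). The other 13 members of the brassinosteroid and helix-loop-helix list, among them the receptor gene BRI1 (0.04), lay between -0.05 and 0.20. GA20OX2, which encodes a gibberellin 20-oxidase, read 376 in ethylene and 186 in air (1.02), and the other 9 gibberellin genes lay between -0.18 and 0.20. Among 22 expansins, the proteins that loosen the wall, EXP6 alone rose, with 810.0 in ethylene and 299 in air (1.44), beside a list median of -0.11. No gene of cellulose and wall polysaccharides passed 2-fold among 50, and none of cell cycle and replication among 69. Over all measured genes 0.867% rose and 0.889% fell, so few calls would fall in lists of this size.

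**Figure D2:**
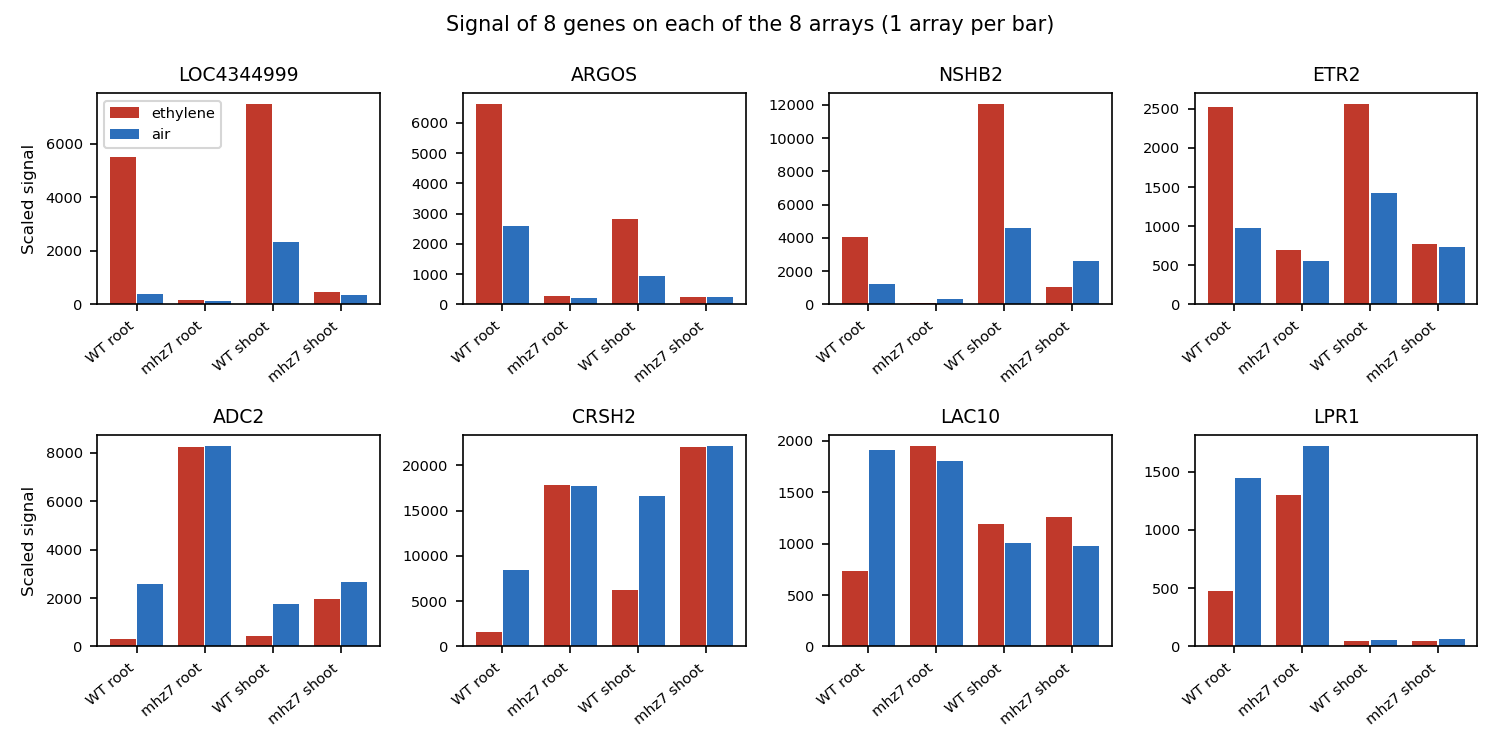
Scaled signal (linear axis from 0) of 8 genes on each of the 8 arrays, ethylene in red to the left of air in blue, with 1 array per bar and no error bars. LOC4344999, ARGOS, NSHB2 and ETR2 were higher in ethylene in WT roots and WT shoots, and ADC2, CRSH2, LAC10 and LPR1 were lower in ethylene in WT roots, with ADC2 and CRSH2 near-level between the gases in mhz7 roots.

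Both measured haemoglobin genes rose by their brightest probe set, but for NSHB1 the other probe sets did not pass 2-fold. The non-symbiotic haemoglobins bind oxygen and remove nitric oxide, and are induced by low oxygen. NSHB2 read 4051 in ethylene and 1239 in air (1.71) and NSHB1 2500 and 924 (1.44), although the other NSHB1 probe sets gave 0.33 and 0.43. The NSHB1 rise comes from a probe set marked for shared probes. In WT shoots that probe set stood at 1.34, beside 1.40 for NSHB2 and -0.17 and -0.08 for the other NSHB1 probe sets. Whether it also reads NSHB2 was not tested. The fermentation genes of the same list did not pass 2-fold. The alcohol dehydrogenase gene Adh2 read 14610 in ethylene and 9244 in air (0.66), the pyruvate decarboxylase gene PDC2 12426 and 9540 (0.38), and the sucrose synthase genes lay between -0.15 and 0.34. PDC1, at 151 and 144, was level in WT roots (0.07), whereas its difference was -3.30 in mhz7 roots and -3.21 in WT shoots.

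Among 11 plastid isoprenoid precursor and carotenoid genes, DXPS rose and none fell, with a median of 0.31. The methylerythritol phosphate pathway makes the 5-carbon units from which carotenoids, gibberellins, abscisic acid and diterpenoids are built. DXPS, for deoxyxylulose phosphate synthase, its first enzyme, read 2269 in ethylene and 539.6 in air (2.07). CLA1, a second deoxyxylulose phosphate synthase gene, read 123 in ethylene and 158 in air (-0.36). The 5 later genes of the pathway that were measured did not pass 2-fold. DXR read 2455 and 1800 (0.45), ISPE 515 and 375 (0.46), ISPF 939 and 758 (0.31), ISPG 4107 and 2532 (0.70), and ISPH 2354 and 1643 (0.52). DXPS and these 5 lay between -1.37 and -0.07 in mhz7 roots and between -0.99 and -0.14 in WT shoots. They were picked out after their values were seen, and 58.5% of all measured genes were above 0 in WT roots, so their shared sign is given as a description. Further along the list, the phytoene synthase genes PSY2 and PSY3 stood at 0.28 and -0.91.

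**Figure D3:**
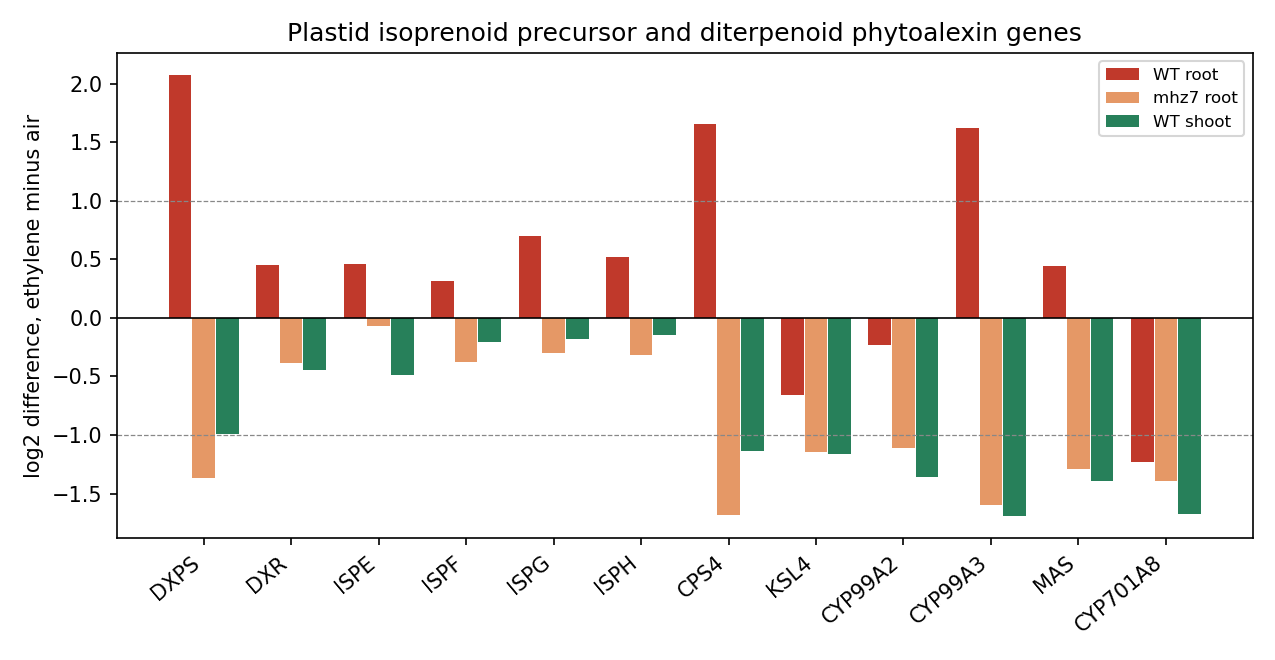
Log2 difference, ethylene minus air, of 6 plastid isoprenoid precursor genes and 6 diterpenoid phytoalexin genes in WT roots (red), mhz7 roots (orange) and WT shoots (green), 1 array per gas in each, with dashed lines at 2-fold. The precursor genes, CPS4, CYP99A3 and MAS were above 0 in WT roots and below 0 in the other comparisons, whereas KSL4, CYP99A2 and CYP701A8 were below 0 in all 3.

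The momilactone genes, which make a diterpenoid defence compound of rice and lie in 1 genomic cluster, split in WT roots. In gene order they are CPS4, CYP99A3, MAS, KSL4 and CYP99A2. CPS4, a cyclase of the shared diterpene precursor, read 1829 in ethylene and 579.8 in air (1.66). CYP99A3, a cytochrome P450, read 5295 and 1722 (1.62), and MAS, momilactone A synthase, read 1009 and 745 (0.44). KSL4, the synthase that follows CPS4, read 176 in ethylene and 278 in air (-0.66), and CYP99A2 834 and 978 (-0.23). In mhz7 roots and in WT shoots the same 5 genes went one way. Their differences lay between -1.68 and -1.11 in mhz7 roots and between -1.69 and -1.13 in WT shoots. The spread between the highest and the lowest member was therefore wider in WT roots, where values lay between -0.66 and 1.66. Among the other phytoalexin genes CYP701A8 fell, with 110.2 in ethylene and 258 in air (-1.23). The list as a whole had 2 rises and 1 fall among 9 genes, with a median of -0.28 in WT roots, -1.15 in mhz7 roots and -1.36 in WT shoots.

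Further rises with a symbol belonged to stress, transport and transcription. The germin-like gene GLP2, of a family of secreted cupin proteins, read 6369 in ethylene and 2131 in air (1.58), and its second probe set gave 1.18. GER7 of the same family read 1239 and 619.9 and lay just under 2-fold. GSTU6, a glutathione S-transferase gene, read 9179 and 3635 (1.34), and the 5 other transferase genes measured did not rise. The potassium transporter gene HAK17 read 534 and 222 (1.27), with a second probe set at 0.51. TPP7, for trehalose phosphate phosphatase, read 272 and 115 (1.24), and PHT3, listed among phosphate genes, 901 and 409 (1.14). JAMYB, a MYB factor gene, read 633 in ethylene and 268 in air (1.24), and NAC067 1957 and 958 (1.03). NAC067 also rose in mhz7 roots (1.11). The 5 WRKY genes had a median of 0.75 with 0 calls, since WRKY76 (0.95), WRKY24 (0.85) and WRKY71 (0.75) lay under 2-fold. LOC4351188, placed with chitinases by its synonym, reached 1.02. LOC4348646, placed with heat shock genes, reached 1.36, but the gene table gives it synonyms of both a heat shock factor and a methionine salvage enzyme, so its identity is not settled here.

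Some rises and falls came from genes too dim over the 8 arrays to count as measured. They were picked by symbol after their values were seen. The lipoxygenase gene LOX3 read 396 in ethylene and 111 in air, and the homeobox gene WOX6 679 and 234. The lipoxygenase gene CM-LOX1 read 282 in ethylene and was under the floor in air, at least 2.82-fold higher. None of the 30 measured jasmonate genes, a pathway that starts with lipoxygenases, passed 2-fold, with a median of 0.06. Of the dim genes that fell, ILI2 read 234 in air and was under the floor in ethylene, at least 2.34-fold lower. BGLU16 read 103 in ethylene and 230.2 in air (-1.16), with another probe set at -0.97.

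The largest fall of a gene was that of ADC2, which encodes arginine decarboxylase, the first step of putrescine synthesis from arginine. It read 315 in ethylene and 2572 in air, 8.16-fold lower, and 8249.6 and 8298 in mhz7 roots in ethylene and air. Its paralog ADC1 read 14015 in ethylene and 12191 in air (0.20). The 5 other polyamine and arginine genes lay between -0.71 for PUT1, a polyamine transporter gene, and 0.07 for the S-adenosylmethionine decarboxylase gene AdoMetDC. CRSH2 encodes a calcium-dependent synthase of ppGpp, a signal nucleotide of plastids and bacteria. It read 1576 in ethylene and 8451 in air (-2.42), against 17873 and 17704 in mhz7 roots. CRSH1, its near relative, read 196 and 218 (-0.15), and RSH1, RSH2 and RSH3 lay between -0.03 and 0.33. In each family 1 of the measured members fell, and its difference in mhz7 roots was -0.01 for ADC2 and 0.01 for CRSH2.

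Among loci without a symbol, LOC4347709 fell to 332 in ethylene, against 1662 in air, but is shoot-abundant and fell in mhz7 roots too (-2.67). LOC4349647 read 1037 and 4519, with -2.27 by its second probe set. LOC4336904 read 256 and 1075, and LOC9268400 1884 and 7224. The last 3 stood at -0.21, 0.04 and -0.04 in mhz7 roots. LOC9269584 (669 and 2614), LOC4332782 (106 and 400.4) and LOC4349605 (671 and 2487) are shoot-abundant. In mhz7 roots LOC9269584 stood at -0.55 and LOC4349605 at -3.14, and LOC4332782 was under the floor in both gases. Where the ethylene array was under the floor, the fall was at least 3.54-fold for LOC4335203, 2.89-fold for LOC4336711, 2.86-fold for LOC4333288 and 2.76-fold for LOC4349062. For LOC4343604 it was at least 2.18-fold, but its other probe sets gave -0.39 and 0.90. OsAffx.13951.1.S1_at, a probe set with no gene listed, read 825 in ethylene and 7113 in air, and 20259 and 19805 in mhz7 roots in ethylene and air. OsAffx.19633.1.S1_at read 479.9 and 3887 in WT roots and 12556 and 12437 in mhz7 roots.

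Dehydrin and late embryogenesis genes are typical targets of abscisic acid that protect cells as they dry. They gave 5 falls and 0 rises among 24 genes of abscisic acid and dehydrins, beside 0.889% and 0.867% of all measured genes. RAB21 read 179 in ethylene and 535 in air (-1.58), LEA19 291 and 719 (-1.31), and PM19L1 233 and 571 (-1.29). RAB16D read 214 and 496 (-1.21) and its neighbour RAB16C 155 and 351 (-1.18). RAB16B was under the floor in ethylene and read 139 in air (-0.47). In mhz7 roots these genes did not fall, at 0.52 for RAB21, 0.46 for RAB16D and 0.01 for RAB16C. None of the 24 is in the shoot-abundant set, although RAB21 read 3426 in WT shoots in ethylene. The receptor, kinase and catabolism genes of the list lay near 0, as with PYL11 (0.07) and ABA8OX1 (0.25), and the list median was -0.06.

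**Figure D4:**
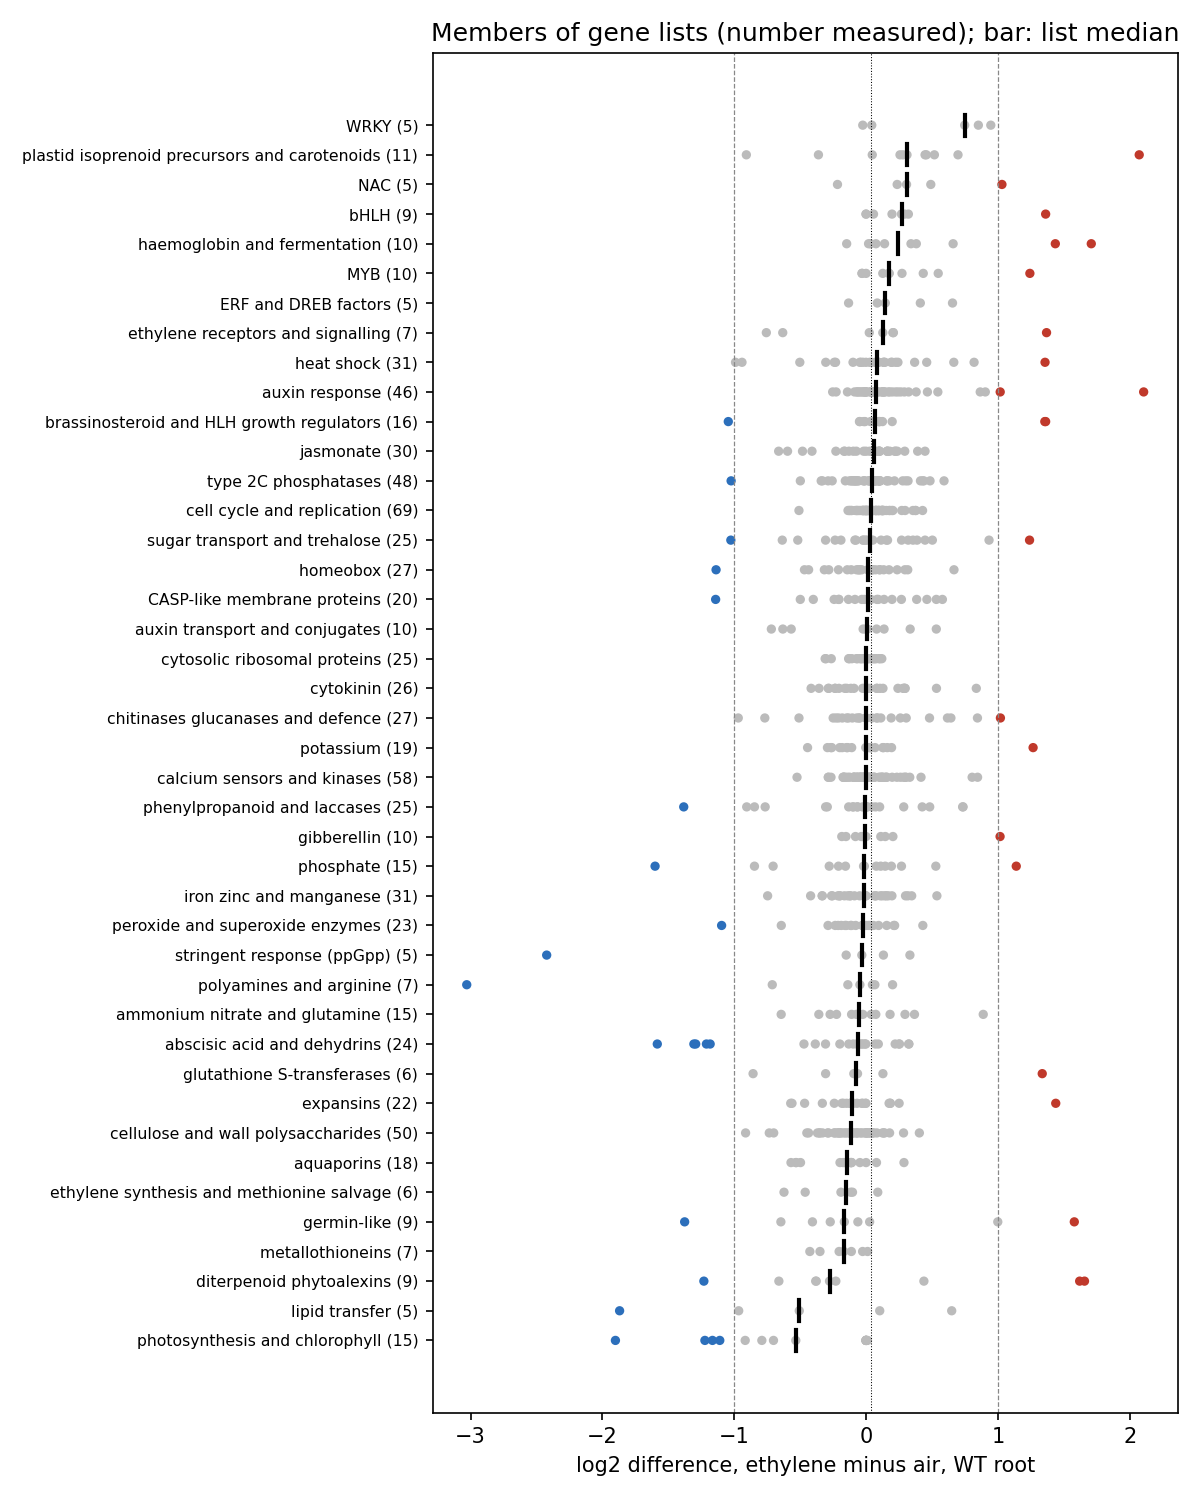
Log2 difference, ethylene minus air, of the measured genes of each list with 5 members or more in WT roots. Red points rose, blue points fell, grey points stayed within 2-fold (dashed lines), black bars are list medians, the dotted line is the median of all measured genes (0.03), and numbers in brackets count the members. WRKY genes have the highest median (0.75, with 0 calls) and photosynthesis genes the lowest (-0.53).

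The other falls came singly from their lists. LPR1, which in Arabidopsis encodes a multicopper oxidase needed for root growth arrest at low phosphate, read 476 in ethylene and 1443 in air (-1.60). It belongs to the root-abundant set and was the 1 fall among 15 phosphate genes, of which PHT3 rose. The laccase gene LAC10, of a family that oxidises lignin precursors, read 734 and 1915 (-1.38), and was level in mhz7 roots (0.12). By their brightest probe sets the other 24 phenylpropanoid and laccase genes stayed within 2-fold, from -0.91 for CAD6 to 0.74 for PAL06. Probe sets of the gene ROMT-17 did not go together. Its brightest stood at -0.13, while the 3 others fell (-1.54, -1.50 and -1.35) and lay between -0.31 and -0.17 in mhz7 roots. SWEET12, a sugar exporter gene, read 401 in ethylene and 817 in air (-1.03), the 1 fall among 25 sugar and trehalose genes, of which TPP7 rose, and Hox22, a homeobox leucine zipper gene, 384 and 844 (-1.14). AO-1, also root-abundant, read 516 and 1102 (-1.10).

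Photosynthesis genes fell in 4 of 15 cases and rose in 0, beside 0.889% and 0.867% of all measured genes. Their median was -0.53. RBCS is given above (-1.90), and its other probe sets that averaged at least 200 over the 8 arrays gave -0.43 and, under the floor in both gases, 0.00. The chlorophyll a/b-binding gene CAB2R read 343 in ethylene and 801 in air (-1.22), the plastocyanin gene PETE 503 and 1128 (-1.16), and the oxygen-evolving enhancer gene OEE3 129 and 279 (-1.11). All 4 are shoot-abundant, as are 10 of the 15. Of the 639 shoot-abundant probe sets 56 fell (8.76%), and 294 read at least 200 on a WT root array. The 5 that are not had a median of exactly 0, the value a gene takes where both gases are under the floor, so that median cannot show a fall. The lipid transfer gene LTP2-B (-1.87), GER5 (-1.38), CASPL2A1 (-1.14) and the phosphatase gene BIPP2C1 (-1.02) are shoot-abundant as well. In mhz7 roots CAB2R (-1.28), PETE (-1.38), LTP2-B (-1.30), GER5 (-2.83) and CASPL2A1 (-1.60) fell with ethylene too. RBCS (-0.32), OEE3 (-0.19) and BIPP2C1 (-0.24) stayed within 2-fold there. CAB2R, LTP2-B, GER5 and BIPP2C1 were under the floor in mhz7 roots in ethylene, so their values there are bounds. BIPP2C1 has a second probe set at 0.21. RBCS stood at 0.946% of its WT shoot level in ethylene and at 2.45% in air in WT roots, and LTP2-B at 1.15% and 4.11%. Fewer shoot cells and less RNA per cell cannot be told apart in these samples, and the part of shoot material in these falls was not tested.

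Several lists had no call, beside 0.867% of all measured genes that rose and 0.889% that fell. At those shares a short list holds few calls or none. There was none among 25 cytosolic ribosomal protein genes (median 0.00), 26 cytokinin genes (0.00), 58 calcium sensors and kinases (0.00), 31 iron, zinc and manganese genes (-0.02) or 7 metallothionein genes (-0.17, with 6 below 0). The 18 aquaporin genes had a median of -0.14 and 0 calls, with 15 below 0 and PIP1-3 lowest at 9601 in ethylene and 14247 in air (-0.57). Heat shock genes had 1 call among 31, that of LOC4348646.

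Beside the other comparisons, which share no array with WT roots, the rises and falls differed. Over the 234 rising probe sets the median signal was 706 in ethylene and 270.0 in air in WT roots, and 194 and 208 in mhz7 roots in ethylene and air. Over the 225 falling probe sets the medians were 319.6 and 888 in WT roots, and 722 and 914 in mhz7 roots. The WT root values of both sets are those that chose them. Of the 120 rising genes, 13 also rose with ethylene in mhz7 roots, where 0.275% of all genes did, and 20 in WT shoots, where 0.491% did. Of the 123 falling genes, 24 fell in mhz7 roots, beside 0.737% of all genes, and 21 in WT shoots, beside 1.26%. In mhz7 roots 78 of the rising genes (65.0%) and 88 of the falling genes (71.5%) stayed within 1.5-fold, beside 96.6% of all measured genes.

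Some genes were called in opposite directions. Of the rising genes, 9 fell in mhz7 roots and 8 fell in WT shoots, 13 genes in all. Of the falling genes 0 rose in either, where few genes rose at all, although 1 falling probe set rose in WT shoots. CPS4, CYP99A3, LOC4343026 and LOC4337246 fell in both. LOC4343026 read 1774 in ethylene and 772 in air in WT roots, 686 and 1474 in mhz7 roots, and was under the floor in ethylene and at 394 in air in WT shoots.

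Some called genes lay beside or near one another. In the gene order of the reference assembly, 12 of the 120 rising genes (10.0%) had a rising gene as a nearest measured neighbour, which holds for 1.71% of all measured genes. For the falling genes it was 21 of 123 (17.1%), beside 1.74%. They formed 16 runs with 33 genes, 6 of rises and 10 of falls, and only the run of LOC4344895, LOC4344897 and LOC4344899 had 3 members. Genes that were not measured lie between the members of some runs, up to 4 coding genes between LOC4351932 and LOC4351940. Some falling runs held genes far brighter in shoots. In ethylene, LOC4344895 and LOC4344899 read 119 and 172 in WT roots and 7812 and 17416 in WT shoots. LOC4348122 and LOC4348123 read 499 and 1192, against 23110 and 27473. Other falling runs did not, as with LOC4343812 and LOC4343813, at 1468 and 936 against 1040 and 1075. The part of shoot material in these runs was not tested. Pairs with a symbol were CPS4 with CYP99A3, RAB16D with RAB16C, and GSTU6 with LOC4349210, which read 4196 in ethylene and 1812 in air. LOC4343026 and its neighbour LOC4343027 (2148 and 987) rose in WT roots and differed by -1.10 and -0.99 in mhz7 roots. Neighbours can be copies of one gene whose probes read each other, and 1 of the 33 genes, LOC4342314, is read by a probe set marked for shared probes.

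**Figure D5:**
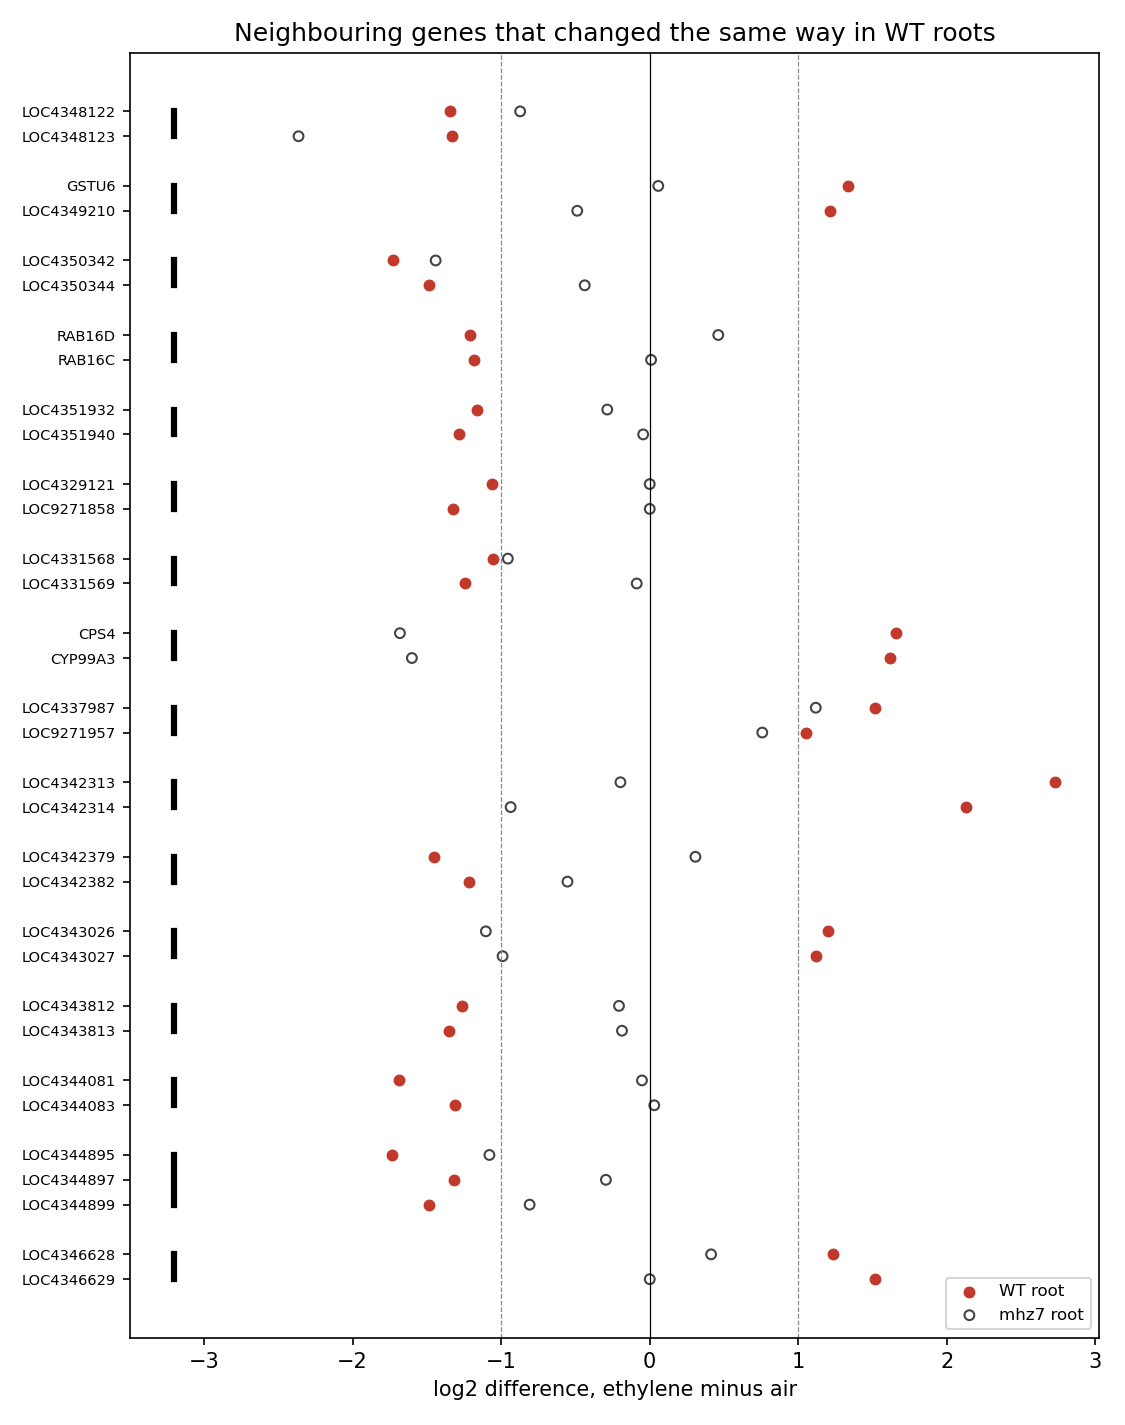
Log2 difference, ethylene minus air, of the 33 genes in 16 runs of nearest measured genes that rose or fell together in WT roots (red points). Open circles are mhz7 roots, with 1 array per gas. Genes that were not measured can lie between the members of a run. Black bars join the members of a run and dashed lines mark 2-fold. Members of a run share a direction in WT roots by construction, and both members of the CPS4 run are below -1 in mhz7 roots.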

How the data were processed

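The authors deposited 1 linear intensity for each probe set on each array, made with MAS5 per the submitters' processing notes. Its version, scaling target and detection calls are not named in these sources. Biotinylated cRNA came from 5 µg of total RNA per the labels' protocols. After 123 controls were set aside, each of the 8 arrays was scaled so that its mean without the highest and lowest 2% was 500, floored at 100, and log2 was taken. Between 51.5 and 53.1% of the probe sets of an array lay under the floor. A signal at the floor on one array gives a bound ("at least"). The 3′ to 5′ actin control ratio was 6.80 in WT roots in ethylene and 6.62 in air. It differed more between the gases elsewhere, at 9.32 and 6.81 in mhz7 roots, 8.26 and 6.34 in WT shoots, and 13.5 and 9.55 in mhz7 shoots. A second pair of actin probe sets gave 20.7 and 20.4 in WT roots, 26.1 and 21.8 in mhz7 roots, and 28.1 and 18.3 in WT shoots. The part of these ratios in the mhz7 and shoot differences was not tested.

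In the array's gene table, 22436 probe sets have 1 gene, 95 have several and 34727 have none. All 17905 genes were found in a RefSeq table (assembly ASM3414082v1), used for symbols and gene order and for no coordinates. Genes named are the 15 largest rises and falls with a symbol, the 10 largest of all, up to 5 bounds each way, up to 5 called members of each of 43 lists, and every ethylene signalling and synthesis gene. List members, unnamed probe sets and dim genes given beside these were chosen after their values were seen. The members and lists were chosen with earlier results of these data known. Alternatives changed scaling, floor, minimum, fold and probe set choice. The 2-fold rule was also run on simulated data, and no outcome of that run is given here or used as support. Motif counts in promoters had been planned and were not run, because no promoter sequence was used here. Python 3.11.15, numpy 2.4.6, pandas 2.3.3 and matplotlib 3.10.9 were used.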

Additional observations from a re-analysis of the deposited data

Results flagged for a closer look

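The following genes rose with ethylene in WT roots and fell with ethylene in mhz7 roots or WT shoots, which drew them out for a closer look. The difference between the comparisons was not tested, since each rests on 1 array per gas.

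In mhz7 roots the log2 differences, ethylene minus air, were -1.68 for CPS4, -1.60 for CYP99A3, -1.37 for DXPS, -1.77 for LOC4337246, -1.10 for LOC4343026, -1.58 for LOC4346052, -1.06 for LOC9270480, -1.03 for LOC4326355 and -1.67 for NSHB2. NSHB2 and LOC9270480 were under the floor in ethylene there, so their values are bounds. In the order given, these genes stood at 1.66, 1.62, 2.07, 1.03, 1.20, 1.26, 1.13, 1.62 and 1.71 in WT roots.

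In WT shoots the differences were -1.13 for CPS4, -1.69 for CYP99A3, -1.53 for the potassium transporter gene HAK17, -1.69 for LOC4336765, -2.16 for LOC4337246, -1.18 for LOC4339960, -1.98 for LOC4343026 and -2.03 for LOC4343027. The last pair was under the floor in ethylene, so both values are bounds. HAK17 read 534 in ethylene and 222 in air in WT roots, and 203 and 586 in WT shoots. LOC4339960 read 1405 in ethylene and 389.7 in air in WT roots, and 239.6 and 544 in WT shoots.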

How the results depend on the processing

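The fold that counts as changed set the counts most, with 52 rises and 45 falls at 3-fold and 646 and 642 at 1.5-fold, beside 234 and 225 at 2-fold. Counted as measured genes there were 120 and 123, which also leaves out probe sets without a single gene and genes averaging under 200 on the 8 arrays. Without that minimum, with the brightest probe set on the WT root arrays, a step chosen after seeing the data, there were 152 and 129. The balance moved with scaling, from 58.4% of calls as rises with the deposited scaling to 44.6% with median scaling, beside 51.0%. The other settings gave 174 to 234 rises and 169 to 243 falls. Of 70 named genes called, 66 kept their call under median scaling, which lost GA20OX2, IAA26, NAC067 and LOC4351188, 55 with a floor of 200, which lost 15 including CYP701A8, GA20OX2, RAB16C, OEE3, TPP7 and BIPP2C1, and 65 with the mean of all probe sets, which lost BIPP2C1, HAK17, LOC4343604, NSHB1 and RBCS. No called gene changed sign, but EIL1A (0.02) stood at -0.02 under median scaling, and list medians within 0.05 of 0 changed sign in places. No paired analysis was possible because each condition has 1 array. Signals near the floor limit what dim genes can show.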
